A study of Homo sapiens with 3 samples.

Results

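Expression of 10 ETS genes other than ERG was followed in 3 single-cell RNA-seq libraries of prostate cancer cell lines. The genes were taken by name, with earlier results of these data known, and were ETV1, ETV4, ETV5, FLI1, SPDEF, EHF, ELF3, ELF1, ETS2 and ELK4. Of these 10 genes, 8 had a row in at least 1 of the 3 count files, which together listed 33423 genes. ETV4 and FLI1 had none in the files used here.

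ETS factors are transcription factors that share a winged helix-turn-helix DNA-binding domain, the ETS domain, which recognises the short core GGAA. In prostate cancer, chromosome rearrangements that place an ETS gene under strong prostate regulatory elements are among the most frequent lesions. They most often involve ERG, and less often ETV1, ETV4, ETV5, FLI1 and others, whereas the epithelial ETS factors SPDEF, EHF and ELF3 belong to the normal programme of luminal glands.

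The libraries were made by Drop-seq. The method pairs 1 cell with 1 barcoded bead in a droplet and counts mRNA molecules near their 3′ ends by unique molecular identifiers (UMIs). LNCaP-ENZ168 held LNCaP cells kept for 168 h in 10 µM enzalutamide (ENZ), an antiandrogen drug. VCaP cells were kept for 48 h either in 10 µM ENZ (VCaP-ENZ48) or in the vehicle alone, 0.1% DMSO (VCaP parental). Both lines were labelled sensitive to ENZ. LNCaP carries a rearrangement in which ETV1 is inserted into the last intron of MIPOL1, next to FOXA1, and VCaP carries the TMPRSS2-ERG fusion, which puts ERG under the androgen-driven TMPRSS2 promoter. Each group was 1 library of 1 cell line, so differences could not be checked against replicates and were not tested. Cell line, time in ENZ and preparation cannot be told apart between LNCaP-ENZ168 and the VCaP libraries. LNCaP cells without ENZ were not analysed here.

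After filtering, the libraries held 944, 997 and 947 cells in the order LNCaP-ENZ168, VCaP parental, VCaP-ENZ48, which is kept for all lists of values, with 6313283 to 19515202 UMIs in all and median depths of 5389, 17817 and 11224 UMIs per cell. No full barcode was shared between libraries. Of the barcodes kept, 205, 859 and 820 ended in an unresolved base, so the VCaP libraries differ from LNCaP-ENZ168 in this respect. Levels are the summed UMIs of a gene per 1000000 UMIs of its library (CPM), with exact Poisson 95% intervals, and intervals cover counting error only. A count of 0 was read against a limit of 3 counts, which is 0.475, 0.154 and 0.210 CPM. All 9 luminal epithelial markers were detected in every library, with summed levels of 2472, 2643 and 3646 CPM. The 4 basal markers summed to 0.634, 1.28 and 0.699 CPM with KRT5 and TP63 at 0, the 5 blood markers to 0.158, 0.359 and 0.420 CPM with CD3E and HBB at 0, and the 6 stromal and endothelial markers to 5.39, 22.2 and 27.3 CPM with CDH5 at 0. Most of that last sum in the VCaP libraries was LUM, a collagen-binding proteoglycan, at 20.96 and 25.2 CPM. The line labels were checked on ERG, which had no UMI in LNCaP-ENZ168, 105.1 CPM (101 to 109.8) in VCaP parental and 57.1 CPM (53.2 to 61.1) in VCaP-ENZ48.

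Promoter sequences were at hand for 7 of the 10 genes, from RefSeq on GRCh38.p14, and are shown for ETV1, seen in 1 line, for ELF3 and ELK4, which passed 2-fold in a comparison, and for SPDEF, which differed between the VCaP libraries. Each is the stretch of 250 bases before the transcription start nearest to the annotated 5′ end of the gene, read 5′ to 3′ on the strand of the gene, with the ETS core GGAA and its reverse complement TTCC in capitals. ETV1 is at chr7:13991426-13991675, minus strand. SPDEF is at chr6:34556330-34556579, minus strand. ELF3 is at chr1:202010337-202010586, plus strand. ELK4 is at chr1:205632012-205632261, minus strand.
ETV1: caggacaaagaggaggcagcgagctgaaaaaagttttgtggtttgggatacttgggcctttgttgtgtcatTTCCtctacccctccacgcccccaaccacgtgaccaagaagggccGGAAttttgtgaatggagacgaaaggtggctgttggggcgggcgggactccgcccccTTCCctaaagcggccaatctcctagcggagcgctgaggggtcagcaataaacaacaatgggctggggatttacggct
SPDEF: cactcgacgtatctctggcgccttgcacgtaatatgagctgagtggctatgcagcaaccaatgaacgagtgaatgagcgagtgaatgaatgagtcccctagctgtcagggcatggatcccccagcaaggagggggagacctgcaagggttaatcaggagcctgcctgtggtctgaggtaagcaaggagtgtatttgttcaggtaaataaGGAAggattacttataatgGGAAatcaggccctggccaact
ELF3: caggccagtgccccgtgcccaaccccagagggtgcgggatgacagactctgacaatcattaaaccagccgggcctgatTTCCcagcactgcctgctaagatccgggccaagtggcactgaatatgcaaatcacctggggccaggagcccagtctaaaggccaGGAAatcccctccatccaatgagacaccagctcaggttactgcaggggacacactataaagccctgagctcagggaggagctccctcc
ELK4: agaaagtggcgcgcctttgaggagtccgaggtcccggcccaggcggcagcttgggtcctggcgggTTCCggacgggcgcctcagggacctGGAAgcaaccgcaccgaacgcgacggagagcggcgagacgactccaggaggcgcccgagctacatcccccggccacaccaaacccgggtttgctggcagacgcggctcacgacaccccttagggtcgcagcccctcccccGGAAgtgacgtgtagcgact
The core occurred 3 times before ETV1, 2 times before SPDEF, 2 times before ELF3 and 3 times before ELK4, and 92.7% of 35116 RefSeq promoter windows of this length held it at least once on either strand. The longer form CCGGAA, which contains the core, was found 2 times before ELK4, once before ETV1 and in neither of the others, against 14.5% of all windows. The TATA box letters TATAAA were in the ELF3 window alone and in 10.7% of all. These matches describe the letters of the windows only. The rearranged ETV1 copy of LNCaP lies in other surroundings than the native locus shown.

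ETV1, ETV4 and ETV5 form the PEA3 group, whose members respond to ERK signalling and are degraded through the ubiquitin ligase COP1. ETV1 (ENSG00000006468, chr7:13891229-13991425, minus strand) was detected in LNCaP-ENZ168 and in neither VCaP library. It had 901 UMIs in LNCaP-ENZ168, or 143 CPM (134 to 152), and 0 UMIs in VCaP parental and in VCaP-ENZ48. No row with counts was found for ETV1 in either VCaP library or for ERG in LNCaP-ENZ168, and each was read as 0 UMIs. The fold limits and shares of cells given for them rest on that reading. Against the 3-count limit the level was at least 928-fold higher than in VCaP parental and at least 680-fold higher than in VCaP-ENZ48. The pattern is thus opposite to that of ERG, which was at least 221-fold lower in LNCaP-ENZ168 than in VCaP parental and at least 120-fold lower than in VCaP-ENZ48.

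ETV1 UMIs were found in many LNCaP cells. A UMI was found in 470 of 944 cells, or 49.8% (exact Clopper-Pearson 95% interval 46.6 to 53.0), and 212 cells held at least 2. The cell with the most held 14 UMIs, and cells with any held 1.92 on average. In VCaP, 0 of 997 and 0 of 947 cells had a UMI, which by the limit of 3 counts allows shares of cells with a UMI, not of cells that express the gene, of up to 0.301% and 0.317%. After every cell was thinned to 2000 UMIs, which left out 1, 0 and 30 cells, 22.5% (19.9 to 25.3) of LNCaP cells kept an ETV1 UMI. LNCaP-ENZ168 held no cell type known to lack ETV1, so the share of cells with a UMI from stray RNA was not measured.

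ETV1 sat at much the same level in LNCaP cells with few and with many cell-cycle transcripts. Cells were split at 4 UMIs over 97 S and G2M genes after thinning, which is the median score of VCaP-ENZ48. The 210 cells at or below that score had 145 CPM (125 to 166) of ETV1 and the 733 others had 142 CPM (132 to 153), so the intervals overlapped widely. All other detected ETS genes also had overlapping intervals in this split of LNCaP-ENZ168, from ELK4 at 56.5 CPM (44.7 to 70.4) and 46.8 CPM (41.0 to 53.3) to EHF at 267 CPM (240 to 295) and 264 CPM (250 to 279).

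Some genes around the ETV1 insertion were also higher in LNCaP-ENZ168, though far less so. MIPOL1, the host gene of the insertion, was at 87.1, 37.1 and 31.2 CPM, and its neighbour TTC6 at 88.5, 36.7 and 28.7 CPM. FOXA1, a pioneer transcription factor, was at 153, 124 and 143 CPM and stayed under 2-fold. Of the 3 of 4 insertion neighbours that passed the filter on level, 2 were 2-fold higher than in both VCaP libraries, against 24.3% of all genes tested. Measured from the median of all genes, the log2 ratios were 0.83 and 0.71 for MIPOL1 and 0.97 and 0.75 for TTC6, over VCaP-ENZ48 and VCaP parental. At the native ETV1 locus on chromosome 7, below the filter, SCIN had 3, 262 and 212 UMIs and DGKB had 69, 1 and 1 UMIs. The neighbours of ETV1 therefore did not all lie on one side.

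ETV5 (ENSG00000244405, chr3:186046314-186110318, minus strand) was close to the detection limit everywhere. It had 10 UMIs in 10 LNCaP cells, or 1.58 CPM (0.760 to 2.91), 2 UMIs in VCaP parental and 1 in VCaP-ENZ48. The log2 ratio of the UMI shares of LNCaP-ENZ168 over VCaP parental was 3.95, with an exact conditional interval of 1.72 to 7.18. ETV5-AS1, which overlaps it on the opposite strand, had no UMI in any library. ETV4 (chr17:43527844-43579620, minus strand), a rarer fusion partner, had no row, and if that stands for no UMI its level was under the limits given above. The same holds for FLI1 (chr11:128686535-128813267, plus strand), the closest relative of ERG and a fusion partner of EWSR1 in Ewing sarcoma.

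**Figure D1:**
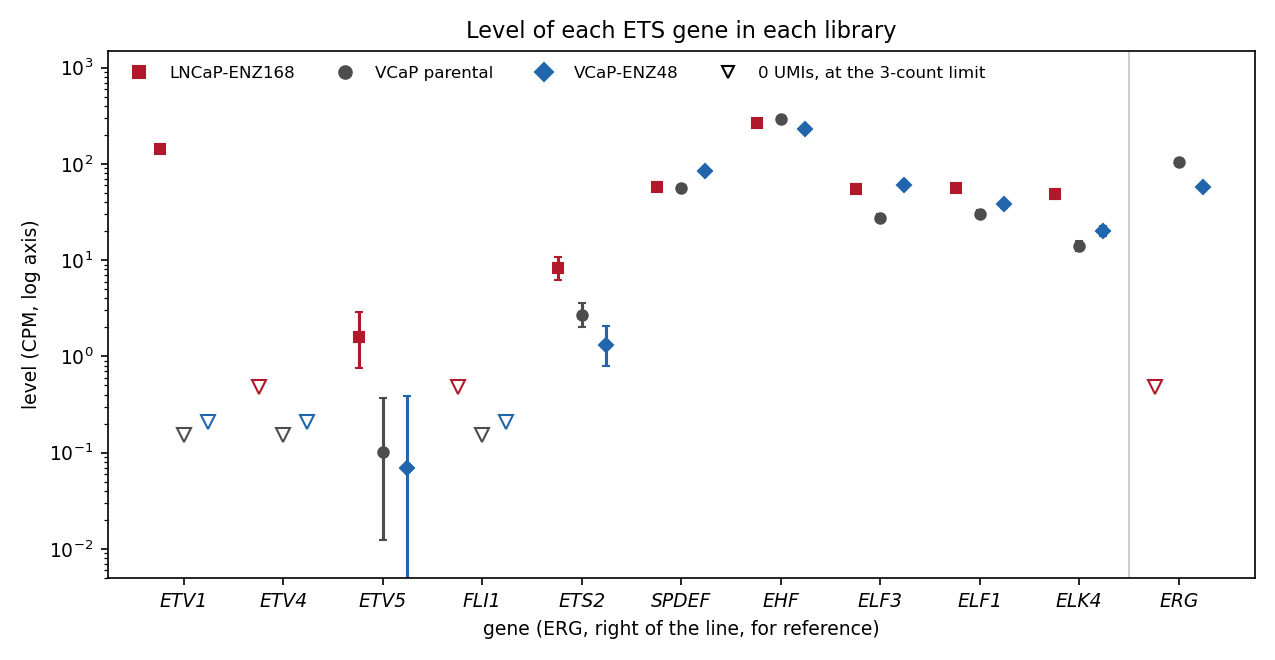
Level of the 10 ETS genes and of ERG (CPM, log axis) in each library, with exact Poisson 95% intervals. Open triangles mark 0 UMIs and stand at the 3-count limit. ETV1 stands at 143 CPM in LNCaP-ENZ168 and at the limit in both VCaP libraries, ERG shows the reverse, and EHF lies between 229 and 293 CPM in all 3.

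ETS2 (ENSG00000157557, chr21:38805183-38824955, plus strand), a RAS-responsive factor, lies between ERG and TMPRSS2, in the interval that is lost when the fusion arises by deletion. It was low in all libraries, with 52, 53 and 19 UMIs, or 8.24 (6.15 to 10.8), 2.72 (2.03 to 3.55) and 1.33 CPM (0.7999 to 2.07). LNCaP-ENZ168 stood above both VCaP libraries, whose intervals met at their ends. The log2 ratios of the UMI shares of LNCaP-ENZ168 were 1.60 (1.02 to 2.18) over VCaP parental and 2.63 (1.85 to 3.47) over VCaP-ENZ48. As ratios of CPM + 1 they were 1.31 and 1.99. With a mean under 10 CPM the gene was below the filter on level and is counted in neither comparison. An antisense gene, ENSG00000205622, overlaps it, and whether the authors' counting used strand is not given in the sources used here.

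SPDEF, EHF and ELF3 are the epithelial ETS factors. SPDEF is a factor of luminal cells, EHF is a differentiation factor of glandular epithelium, and ELF3 acts in epithelial barrier formation and in responses to inflammatory signals. All were present in every library, and EHF had another order of libraries than SPDEF and ELF3. EHF (ENSG00000135373, chr11:34621093-34663288, plus strand) was at 264 CPM (252 to 277) in LNCaP-ENZ168, 293 CPM (285 to 300.4) in VCaP parental and 229 CPM (222 to 237) in VCaP-ENZ48. SPDEF (ENSG00000124664, chr6:34537802-34556333, minus strand) was at 58.0 CPM (52.2 to 64.2), 56.3 CPM (53.0 to 59.7) and 84.6 CPM (79.9 to 89.5). EHF was thus highest in VCaP parental, where the SPDEF level could not be separated from that of LNCaP-ENZ168. ELF3 (ENSG00000163435, chr1:202007945-202017183, plus strand) was at 55.1 CPM (49.5 to 61.2), 27.7 CPM (25.4 to 30.2) and 60.1 CPM (56.1 to 64.2). Both ENZ libraries were above VCaP parental and overlapped each other.

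ELF1 and ELK4 are broadly expressed. ELF1 is a member of the ELF group known from blood and endothelium, and ELK4 is a ternary complex factor that binds DNA together with serum response factor and is phosphorylated by ERK. ELF1 (ENSG00000120690, chr13:40931924-41061440, minus strand) was at 56.2 CPM (50.5 to 62.4) in LNCaP-ENZ168, 30.3 CPM (27.9 to 32.8) in VCaP parental and 38.3 CPM (35.2 to 41.7) in VCaP-ENZ48. ELK4 (ENSG00000158711, chr1:205597556-205632011, minus strand) was at 48.9 CPM (43.6 to 54.7), 14.2 CPM (12.6 to 16.0) and 19.9 CPM (17.7 to 22.4). Both genes had the same order, with LNCaP-ENZ168 first, VCaP-ENZ48 next and VCaP parental last, and neighbours in that order did not overlap.

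Detection in single cells followed the depth of the library as well as the level, which thinning to 2000 UMIs removed. Without thinning, EHF had a UMI in 69.6%, 96.8% and 77.2% of cells, and after thinning in 36.8% (33.7 to 40.0), 43.0% (39.9 to 46.2) and 34.1% (31.1 to 37.3). SPDEF was in 29.9%, 63.5% and 55.8% of cells, and after thinning in 10.6% (8.71 to 12.7), 10.0% (8.24 to 12.1) and 16.4% (14.02 to 18.9). Thinning thus moved SPDEF in LNCaP from the lowest share to one level with VCaP parental. ELF3 went from 27.1%, 37.3% and 43.7% to 9.33% (7.55 to 11.4), 4.91% (3.66 to 6.45) and 10.3% (8.36 to 12.4). ELF1 went from 26.1%, 41.4% and 32.3% to 10.1% (8.23 to 12.2), 4.81% (3.57 to 6.33) and 6.11% (4.65 to 7.86). ELK4, which had similar shares of 25.6%, 22.8% and 20.5% at full depth, was in 9.65% (7.84 to 11.7), 2.51% (1.63 to 3.68) and 3.27% (2.22 to 4.64) after thinning. At equal depth the shares of all 5 genes had the order of their CPM values, although most neighbours in that order had overlapping intervals.

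**Figure D2:**
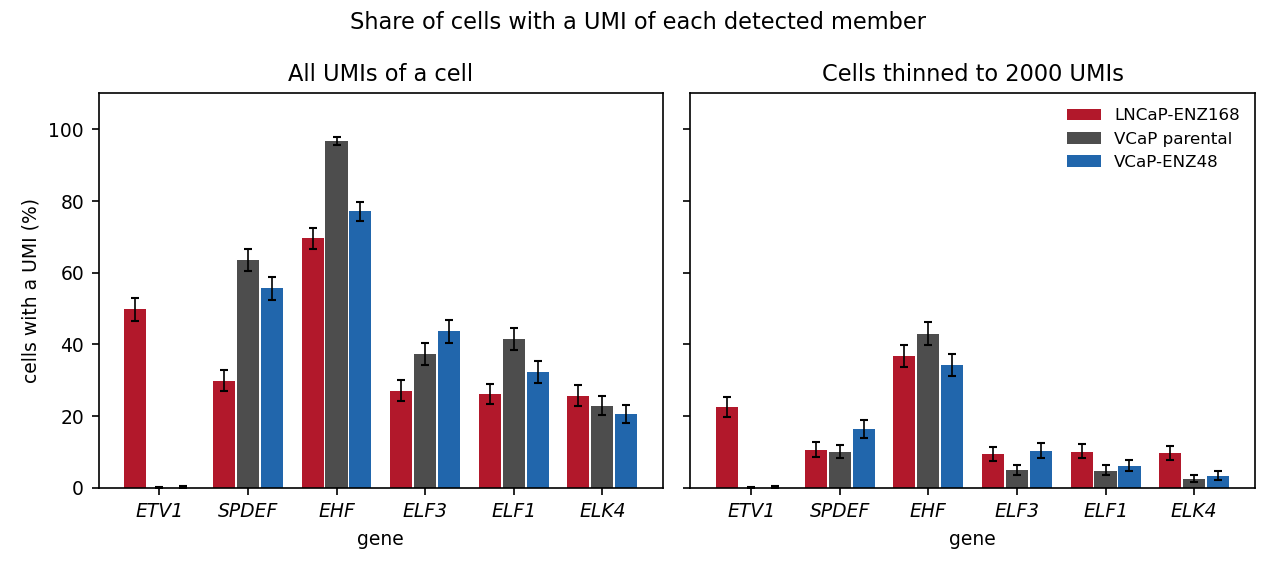
Share of cells with at least 1 UMI (%) of the 6 ETS genes that passed the filter on level, at full depth (left) and with every cell thinned to 2000 UMIs (right). Bars are libraries, with exact Clopper-Pearson 95% intervals. VCaP parental, the deepest library, loses its lead for SPDEF and ELF1 on the right, and ETV1 is seen in LNCaP-ENZ168 alone.

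The question asked of the VCaP pair was which ETS genes differed after 48 h of ENZ. ELF3 was higher by a log2 ratio of 1.09 (0.96 to 1.27), SPDEF by 0.58 (0.47 to 0.71), ELK4 by 0.46 (0.25 to 0.73) and ELF1 by 0.33 (0.17 to 0.51), while EHF was lower at -0.35 (-0.41 to -0.29). ERG, driven by the fusion, was at -0.87 (-1.001 to -0.76). These are log2 ratios of CPM + 1 of the ENZ library over the vehicle library. Their intervals are exact, conditional on the UMI counts and without the added 1 CPM. All 7729 genes that averaged 10 CPM or more had a median of -0.07, and the middle 50% of them lay between -0.44 and 0.34, so ELF3, SPDEF and ELK4 stood above that range and ELF1 and EHF inside it.

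Of the 10 genes, 5 passed the filter, 1 (ELF3) was at least 2-fold higher and 0 were at least 2-fold lower, against 8.19% and 6.77% of all genes tested. With so few genes the counts are near this background. The median of the 5 was 0.46. Measured from the median of all genes, the ratios were 1.15 for ELF3, 0.65 for SPDEF, 0.53 for ELK4, 0.40 for ELF1 and -0.28 for EHF. Scaling by TMM factors moved the median of all genes by -0.27 and median-of-ratios scaling by -0.21, and the ELF3 ratio to 0.81 and 0.87, under 2-fold. In the 138 and 127 cells whose barcodes end in a resolved base it was 0.82. From the shifted medians ELF3 remained at 1.14 under either, and EHF at -0.30.

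The VCaP libraries differed in their cycling cells. Only 98 cells of VCaP parental, 9.83%, were at or below the cell-cycle score of 4 UMIs, against 601 cells, 65.5%, of VCaP-ENZ48. As this score is the median of VCaP-ENZ48, at least 50% of that library lies at or below it by construction. Between these least-cycling cells the ELF3 ratio was 0.61 (0.25 to 1.01), from 38.1 to 58.6 CPM. The ratio was under 2-fold, but its interval reached 2-fold, with 66 ELF3 UMIs on the VCaP parental side. SPDEF was at 0.26 (-0.003 to 0.54), EHF at -0.13 (-0.27 to 0.02), ELK4 at 0.14 (-0.38 to 0.72) and ELF1 at 0.34 (-0.06 to 0.79), so that of these 5 the interval of ELF3 alone stayed clear of 0. With the score set at 6 UMIs, which kept 186 cells of VCaP parental and 739 of VCaP-ENZ48, ELF3 was at 0.70 (0.43 to 1.01), and the intervals of SPDEF at 0.24 (0.04 to 0.45), EHF at -0.18 (-0.29 to -0.07) and ELF1 at 0.38 (0.08 to 0.72) were clear of 0 as well. At 4 UMIs the ERG ratio was further from 0, at -1.50 (-1.72 to -1.30).

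Within VCaP parental, the 98 least-cycling cells had 74.4 CPM (62.1 to 88.4) of SPDEF against 54.6 CPM (51.2 to 58.1) in the 899 others. ELF3 was at 38.1 CPM (29.4 to 48.4) against 26.7 CPM (24.4 to 29.2), and EHF at 259 CPM (236 to 285) against 296 CPM (288 to 304). For these 3 genes the directions are those of the library difference. ERG had the opposite direction, at 163 CPM (144 to 183) in the least-cycling cells against 99.5 CPM (94.96 to 104), although it was lower in the ENZ library. ELF1, ELK4 and ETS2 had overlapping intervals in this split. Within VCaP-ENZ48 SPDEF was again higher in the least-cycling cells, at 89.4 CPM (83.5 to 95.6) against 75.3 CPM (67.6 to 83.5) with intervals that met, but EHF was higher too, at 237 CPM (228 to 247) against 213 CPM (200.3 to 227), and ELF3 was at 58.6 CPM (53.8 to 63.6) against 63.5 CPM (56.5 to 71.1), with overlapping intervals. The score is a range and not a cell type, and the part of cell cycle in the library difference was not tested beyond these values.

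**Figure D3:**
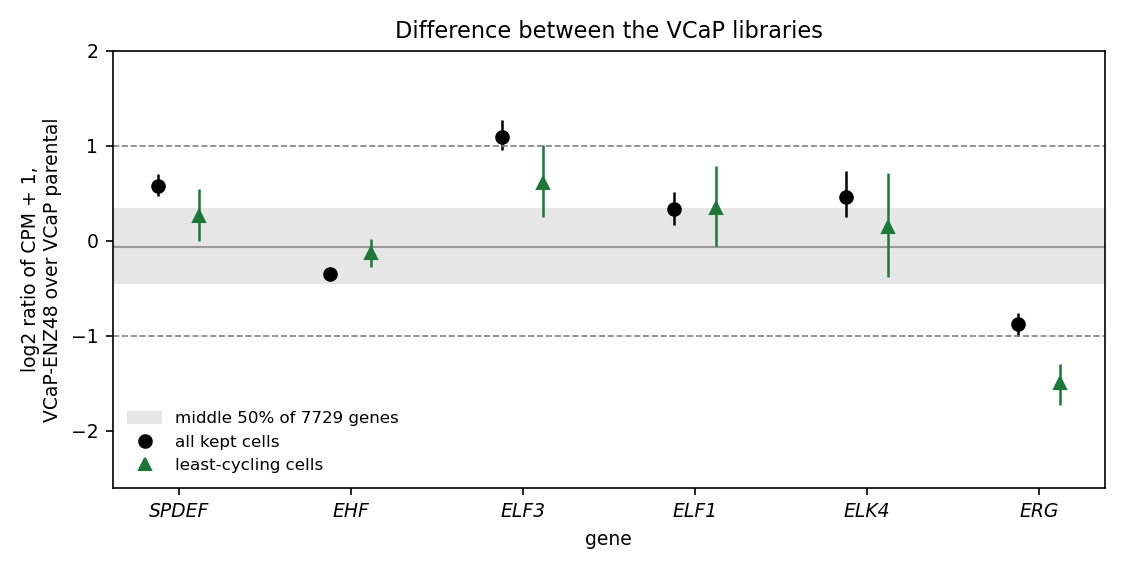
Log2 ratio of CPM + 1, VCaP-ENZ48 over VCaP parental, for the 5 ETS genes that passed the filter and for ERG, in all kept cells (circles) and in least-cycling cells (triangles), with exact conditional 95% intervals. The grey band holds the middle 50% of 7729 genes, the solid line is their median and the dashed lines mark 2-fold. ELF3 is the one ETS gene past 2-fold in all cells, at 1.09, and lies at 0.61 in least-cycling cells.

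ELF3 and ELK4 have neighbours that matter for how their UMIs are read. ELF3-AS1 overlaps ELF3 on the opposite strand and was at 21.4, 18.0 and 13.4 CPM, with a log2 ratio of -0.40 in the VCaP pair where ELF3 was higher. ELK4 lies 25839 bases downstream of SLC45A3, an androgen-driven prostate gene on the same strand, with which it forms a known read-through transcript. SLC45A3 was at 11.9, 96.1 and 22.9 CPM, lowest in LNCaP-ENZ168 where ELK4 was highest, and its log2 ratio in the VCaP pair was -2.02 where that of ELK4 was 0.46. Read-through and ELK4 transcripts were not told apart by the counts.

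Between the lines, LNCaP-ENZ168 was set against each VCaP library and a gene was counted where it was past 2-fold in the same direction against both. Of the 10 genes, 6 passed the filter, 2 (ETV1 and ELK4) were higher and 0 were lower, against 24.3% and 8.88% of 8504 genes tested. The count of 2 of 6 is near that background. ELK4 had log2 ratios of 1.25 (1.06 to 1.53) over VCaP-ENZ48 and 1.72 (1.55 to 2.03) over VCaP parental. The median of all genes was itself 0.62 and 0.50 in these comparisons, so ELK4 was 0.63 and 1.22 above it. Under TMM scaling the ELK4 ratios were 0.74 and 0.93, and under median-of-ratios scaling 0.77 and 1.02, which left ETV1 as the one gene counted. These scalings moved the median of all genes by -0.55 and -0.84 (TMM) and by -0.51 and -0.74 (median-of-ratios), over VCaP-ENZ48 and VCaP parental.

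The other shared genes lay on both sides of the typical gene. ELF1 had ratios of 0.54 (0.36 to 0.75) over VCaP-ENZ48 and 0.87 (0.70 to 1.09) over VCaP parental, or -0.08 and 0.37 from the medians, and these were 0.02 and 0.07 under TMM and 0.06 and 0.16 under median-of-ratios scaling. ELF3 had -0.12 (-0.31 to 0.06) and 0.97 (0.79 to 1.19), which is -0.74 and 0.47 from the medians. Its ratios were -0.64 and 0.17 under TMM and -0.61 and 0.26 under median-of-ratios scaling, so which VCaP library LNCaP-ENZ168 lay closer to in ELF3 depended on the scaling. SPDEF had -0.54 (-0.72 to -0.38) and 0.04 (-0.13 to 0.21), which is -1.16 and -0.46 from the medians, and its second ratio turned to -0.77 under TMM, -0.67 under median-of-ratios and -0.10 without mitochondrial and ribosomal protein genes. EHF had 0.20 (0.12 to 0.29) and -0.15 (-0.23 to -0.07), which is -0.42 and -0.64 from the medians. Its first ratio turned to -0.33, -0.29 and -0.05 under the same 3 scalings. The median of the 6 genes was 0.37 over VCaP-ENZ48 and 0.92 over VCaP parental.

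**Figure D4:**
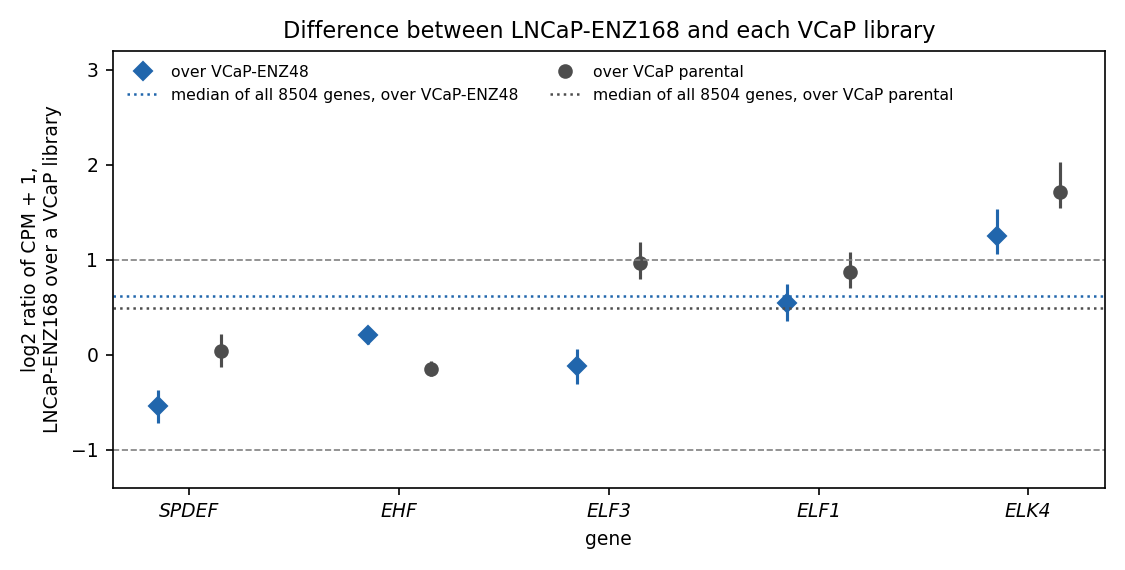
Log2 ratio of CPM + 1, LNCaP-ENZ168 over each VCaP library, for the 5 ETS genes detected in all libraries that passed the filter, with exact conditional 95% intervals. Dotted lines are the medians of all 8504 genes (0.62 over VCaP-ENZ48, 0.50 over VCaP parental) and dashed lines mark 2-fold. ELK4 is past 2-fold against both libraries, and SPDEF and EHF lie below both medians. ETV1, with no UMI in VCaP, is not drawn.

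The make-up of the ETS transcripts differed between libraries more than their sum. The 10 genes together had 635 CPM in LNCaP-ENZ168, 424 CPM in VCaP parental and 434 CPM in VCaP-ENZ48. A typical gene was also higher in LNCaP-ENZ168, by a median log2 ratio of 0.62 over VCaP-ENZ48 and 0.50 over VCaP parental. EHF took 41.6% (40.1 to 43.2), 69.0% (68.0 to 70.0) and 52.9% (51.6 to 54.1) of their UMIs. ETV1 took 22.5% (21.2 to 23.8) in LNCaP-ENZ168. SPDEF went from 13.3% (12.6 to 14.03) to 19.5% (18.5 to 20.5) and ELF3 from 6.54% (6.01 to 7.09) to 13.8% (12.998 to 14.7) between VCaP parental and VCaP-ENZ48. The shares depend on how well each gene is captured at its 3′ end and do not rank the genes by transcript number.

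**Figure D5:**
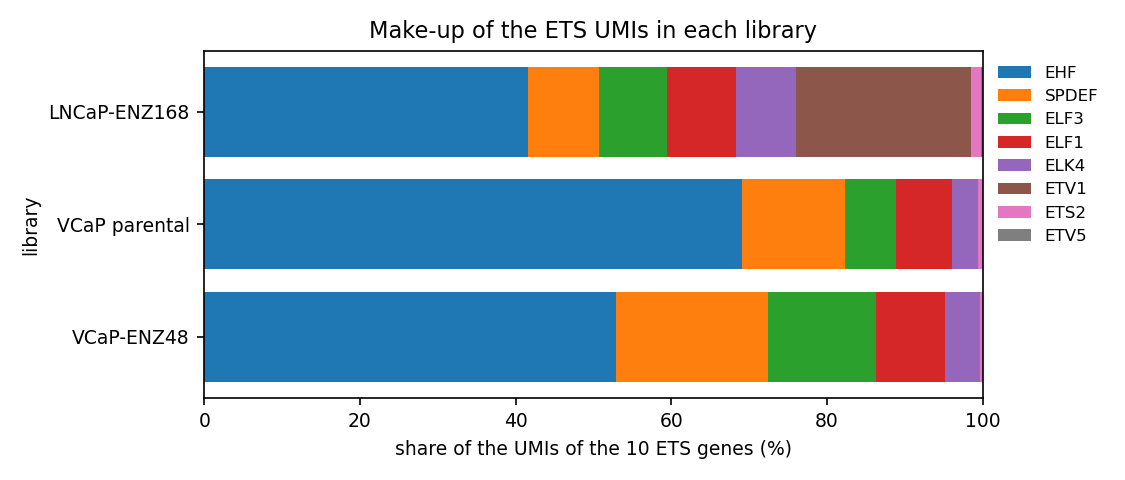
Share (%) of the UMIs of the 10 ETS genes taken by each gene, 1 bar per library. ETV4 and FLI1 have none. EHF takes 41.6%, 69.0% and 52.9% from top to bottom, and ETV1 takes 22.5% in LNCaP-ENZ168 alone.

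Among cells of 1 library the ETS genes were only weakly related to each other. A median of 2, 3 and 2 of the 10 genes was seen per cell, and 6.89%, 0.903% and 10.9% of cells had none. At the equal depth of 2000 UMIs the median was 1 in each library, and 30.6%, 44.6% and 46.7% of cells had none, so LNCaP-ENZ168 then had the smallest share without an ETS UMI. In thinned LNCaP cells ETV1 and EHF were seen together in 8.38% of cells, where the product of their shares is 8.27%, and Pearson's r was -0.0018 over 943 cells. The highest r between ETS genes was 0.11, for EHF and ELF3 in VCaP-ENZ48. EHF was the one ETS gene with a UMI in at least 25% of thinned cells. It alone was compared with all other genes that had a UMI in at least 10% of them. None reached an r of 0.3 with it, in sparse counts of which 1 library is the common source, and its highest r was 0.16, 0.18 and 0.16.

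Cell-to-cell spread was described by the Fano factor, the variance over the mean of the UMIs in thinned cells, which is near 1 for pure counting. ELF3 in VCaP-ENZ48 had 1.24, at or above 98.3% of 1818 genes of like mean, compared with 1.10 in VCaP parental and 1.12 in LNCaP-ENZ168. In these 2 libraries too it was at or above most genes of like mean, 92.2% and 91.5%. In VCaP-ENZ48 ELF1 had 1.15 and ELK4 1.15, at or above 95.5% and 94.2% of like genes. ETV1 in LNCaP-ENZ168 had 1.10, with 78.1% of 1423 like genes at or below it, and EHF had 1.18, 1.02 and 1.15. SPDEF lay between 0.99 and 1.03 in all 3. Counts this sparse leave little room above counting noise, and these values carry no test.

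The remaining human ETS genes were mostly low in all libraries. Of 17 other ETS genes, 15 had a row. In the VCaP pair 3 passed the filter and 0 were past 2-fold in either direction, against 8.19% (higher) and 6.77% (lower) of all genes tested. With so few genes this is near the background. Between the lines 4 passed and 1 was higher, against 24.3% of all genes tested. This was the repressor ETV3, at 25.03 CPM against 6.97 and 11.8. From the medians of all genes its log2 ratios were 0.40 over VCaP-ENZ48 and 1.21 over VCaP parental. ELF2, a relative of ELF1, was at 53.2, 35.9 and 42.9 CPM. GABPA, the ubiquitous ETS subunit of GABP, was at 25.2, 33.9 and 30.0 CPM. The haematopoietic factor SPI1 had 1, 0 and 0 UMIs.

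Genes that act on ETS proteins, or that report the ERK pathway that modifies several of them, differed in part. Of 14 ERK feedback and early response genes, 4 passed the filter in the VCaP pair. Of these, 2 were 2-fold higher with ENZ and 0 were lower, against 8.19% and 6.77% of all genes tested. The 2 higher genes were EGR1, from 28.6 to 189 CPM, and DUSP6, a phosphatase of ERK, from 5.33 to 17.2 CPM. EGR1, an immediate early factor, was at 187 CPM in LNCaP-ENZ168. CCND1, a cyclin, was at 454, 591 and 345 CPM. Between the lines 3 passed and SPRY1, an inhibitor of receptor signalling, was lower in LNCaP-ENZ168 at 3.48 CPM against 17.3 and 11.7. In that comparison 8.88% of all genes tested were lower. The list as a whole thus had no single direction. Of 11 regulators of ETS protein stability or repression, 6 passed in either comparison. None was past 2-fold in the VCaP pair, where 8.19% of all genes tested were higher and 6.77% lower. Between the lines 2 ubiquitin ligase genes were higher, which is near the 24.3% of all genes tested. CUL4A was at 56.5 CPM against 17.0 and 20.5, and TRIM25 at 83.8 CPM against 22.2 and 31.8. From the medians of all genes, the log2 ratios of CUL4A and TRIM25 were 0.80 and 0.75 over VCaP-ENZ48. Over VCaP parental they were 1.18 and 1.37. SPOP, a ligase adaptor that targets ERG, was at 145, 102 and 96.4 CPM.

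SPDEF acts in luminal cells, and its 11 listed partners and androgen-axis genes all passed the filter. In the VCaP pair 2 were higher and 2 were lower, against 8.19% and 6.77% of all genes tested. HOXB13 rose from 190 to 382 CPM and GATA2 from 133 to 343 CPM. HOXB13 was on the 2-fold limit, at a log2 ratio of 1.003, where TMM scaling moved the median of all genes by -0.27. The lower genes were SLC45A3, as above, and FKBP5, an androgen-induced gene, from 66.9 to 23.8 CPM. KLK2, another androgen-induced gene, was at 1554 CPM in VCaP parental and 3053 CPM in VCaP-ENZ48, a difference under 2-fold by the ratio used. Between the lines TMPRSS2 was higher in LNCaP-ENZ168, at 97.6 CPM against 26.8 and 16.8, and KLK2 lower, at 27.1 CPM. Of all genes tested 24.3% were higher and 8.88% lower.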

How the data were processed

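Drop-seq libraries of LNCaP and VCaP cells were analysed from the counts that the authors deposited, which are whole-number UMI counts for each gene in each of 1000 barcodes a file, not normalized. Per the study's methods the authors used STAR for alignment to GRCh38 and Drop-seq tools for counting over Gencode genes, and no cell filter is given for these files. Whether strand was used in counting is not given in the sources used here. Gene positions are from a later Gencode release on the same build.

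Cells were kept with 300 or more genes, 500 or more UMIs and no more than 25% mitochondrial UMIs. Doublets were not called. A gene without a row was read as 0. Ratios used a pseudocount of 1 CPM and a gene entered a comparison at a mean of 10 CPM. Shares of cells were compared after thinning to 2000 UMIs. With 1 library a group there was no test, and exact 95% intervals (Poisson, Clopper-Pearson, conditional) cover counting error only. All 10 genes and ERG are named, and from each of the other lists at most the 3 genes of highest mean CPM plus those past 2-fold where they are 5 or fewer. The genes and lists were chosen with earlier results of these data known. Alternatives covered cell filters, barcode ending, equal weighting of cells, scaling (TMM of edgeR 4.0.16, median-of-ratios, totals without mitochondrial and ribosomal protein genes), pseudocount, level filter, fold, and the depth and seed of thinning. Some listed genes are counted with their lists but not reported here by name. The steps were tested on simulated data. Cell-cycle genes were those of Seurat 5.3.0. Computations used Python 3.11.15, numpy 2.4.6, scipy 1.17.1, matplotlib 3.10.9 and R 4.3.3.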

Additional observations from a re-analysis of the deposited data

How the results depend on the processing

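The count of ETS genes at least 2-fold higher in VCaP-ENZ48 than in VCaP parental, 1 as reported, was 0 with barcodes that end in a resolved base alone, with TMM scaling, with median-of-ratios scaling, with a pseudocount of 5 CPM and at 3-fold. The count higher in LNCaP-ENZ168 than in both VCaP libraries, 2 as reported, was 1 with TMM scaling, with median-of-ratios scaling and at 3-fold, ETV1 being the gene left each time. With the level filter at 1 CPM it was 3, with ETS2 added. Of 56 such counts under alternatives, 48 were within 1.5 times the reported count, and the counts of lower genes were 0 throughout. Of 216 levels and 189 thinned shares under alternatives, 161 and 136 stayed inside the reported counting interval. Of 284 ratios, 189 stayed within the range spanned by the reported ratio and its interval, which is open at its outer end where 1 library had no UMI. In least-cycling VCaP cells chosen at the lower or the upper quartile of the score, the ELF3 ratio was 0.91 (0.24 to 1.71) and 0.70 (0.43 to 1.01). The lower quartile left 31 cells of VCaP parental with 18 ELF3 UMIs. No paired analysis was possible because 1 library stands for each group. For the scalings, the change follows from their own construction, and for the barcode endings the cause was not tested. Depth limits ETV5 and ETS2, and limits what the absence of UMIs of ETV4 and FLI1 allows.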

Other observations

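Of 7 genes that are often high in ERG-rearranged tumours, 6 passed the level filter, and 4 of these were at least 2-fold lower in LNCaP-ENZ168, the library with ETV1, than in both VCaP libraries, against 8.88% of all genes tested. CRISP3, a secreted protein, was at 1.27, 276 and 161 CPM, the germline piRNA factor TDRD1 at 0.475, 161 and 143 CPM, and the phospholipase PLA1A at 0.475, 132 and 83.5 CPM. ARHGDIB, a regulator of small GTPases, had no UMI in LNCaP-ENZ168 and was at 24.9 and 9.86 CPM in VCaP. The other 3 were not absent from LNCaP-ENZ168, with NCALD at 29.0, 23.4 and 60.3 CPM, CACNA1D at 7.13, 13.1 and 10.1 CPM and KCNS3, below the filter, at 3.802, 3.07 and 1.89 CPM. In the VCaP pair ARHGDIB was the 1 gene lower by 2-fold with ENZ, against 6.77% of all genes tested. The calcium sensor NCALD was the 1 gene higher, from 23.4 to 60.3 CPM, against 8.19%. The median ratio of the 6 was -0.50 and that of ERG itself -0.87.

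The genes that lie around ETS2 between ERG and TMPRSS2 had a wide range of levels in VCaP. Of 14 listed genes, ETS2 included, 13 lie wholly between them and MX1 overlaps TMPRSS2, all 14 had a UMI in both VCaP libraries, and 7 passed the level filter. The lowest were near the level of off-type markers, DSCAM with 2 and 3 UMIs and MX2 with 4 and 7, beside 4 and 5 UMIs of the B-cell marker CD79A. PCP4, a calmodulin regulator, was at 89.5 CPM in VCaP parental and 460 CPM in VCaP-ENZ48, and BACE2, a protease, at 13.7 and 33.6 CPM. Both were 2-fold higher with ENZ, against 8.19% of all genes tested. PCP4, BACE2 and FAM3B were lower in LNCaP-ENZ168, at 0.158, 1.11 and 2.38 CPM, against 8.88% of all genes tested. HMGN1, a nucleosome-binding protein, was at 378, 943 and 510 CPM, and GET1 at 103, 98.8 and 105.0 CPM.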
